A study of Mus musculus with 20 samples.

Results

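The 7 mouse fatty acid elongase genes Elovl1 to Elovl7 were taken by symbol from the 55471 gene IDs of a brown adipose tissue mRNA-seq series, and each symbol matched 1 gene ID. Brown adipose tissue, the heat-producing fat of mammals, was sequenced in 20 libraries, 5 for each of 4 groups. The groups were wild-type (WT) tissue at room temperature (RT), WT tissue after 4 h of cold stress, adipose-specific CEBPB knockout (KO) tissue at RT, and KO tissue after 4 h of cold stress. CEBPB (C/EBP beta) is a transcription factor of adipocytes. The labels used here give neither the promoter that drives the deletion nor the strain, age or sex of the mice, and do not say that the libraries of a group came from separate animals. P values therefore measure the spread between libraries, which may be technical.

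Elongases sit in the endoplasmic reticulum membrane and carry out the first and rate-limiting step of the cycle that lengthens fatty acids, the condensation of an acyl-CoA with malonyl-CoA. A ketoacyl reductase, a dehydratase and an enoyl reductase complete each round. Elovl6 acts on palmitate, Elovl1, Elovl3 and Elovl7 on longer saturated and monounsaturated chains, Elovl2 and Elovl5 on polyunsaturated chains, and Elovl4 makes the longest chains of retina, brain and skin. Elovl3 is known as a cold-recruited gene of brown fat.

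All 7 genes encode the histidine box, the motif of the active site that defines the family, and its bases are shown because they split the members into sets. The stretches below come from the GENCODE M21 transcripts (GRCm38), on the coding strand, with the 15 bases of the box in capitals.
Elovl1: ttcctcCATGTCTTCCACCACtcggtg
Elovl2: ttccttCATGTCTATCACCACgcgtcc
Elovl3: tttgtcCACTGGTACCACCACagcaca
Elovl4: ttccttCACGTGTACCACCACtgcacc
Elovl5: gtgctcCATGTCTACCACCACgctacc
Elovl6: ttcctgCACTGGTACCACCACatcact
Elovl7: ttccttCATGTCTTCCATCATacgatc
The second codon of the box was TGG in Elovl3 and Elovl6 and GTC or GTG in the other 5 genes. The box began between coding base 421 (Elovl1 and Elovl6) and coding base 472 (Elovl4). Over the whole coding sequence, identity was highest between Elovl2 and Elovl5 (66.4% of aligned bases) and between Elovl1 and Elovl7 (65.5%). Elovl3 and Elovl6 shared 61.9%, and the lowest identity, 57.1%, was between Elovl2 and Elovl3 and between Elovl2 and Elovl6.

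In GRCm38 the members lie on 5 chromosomes: Elovl1 at chr4:118428093-118432953 (+), Elovl2 at chr13:41182381-41220405 (-), Elovl3 at chr19:46131897-46135694 (+), Elovl4 at chr9:83778692-83806277 (-), Elovl5 at chr9:77917364-77984519 (+), Elovl6 at chr3:129532355-129638495 (+) and Elovl7 at chr13:108214404-108285683 (+). Opposite-strand genes share 53 exon bases with Elovl1 (Cdc20), 10 with Elovl3 (Pitx3) and 34 with Elovl6 (Gm35986). The counts used were of 1 strand, and reads on the other strand made up at most 0.37% of any member's reads.

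RefSeq promoters (GRCm38.p6) were given for 6 of the 7 members (all but Elovl3), as 8 windows of 250 bases before and 50 bases after a start site. The 250 upstream bases are shown for Elovl4 and Elovl7, which had the largest changes in WT cold among the members with a window, and for Elovl5, whose level did not pass any test and whose window held a match upstream of the start. Elovl4 is at chr9:83806306-83806555 (-), Elovl7 at chr13:108214154-108214403 (+) and Elovl5 at chr9:77917115-77917364 (+), with a CACGTG E-box in capitals.
Elovl4: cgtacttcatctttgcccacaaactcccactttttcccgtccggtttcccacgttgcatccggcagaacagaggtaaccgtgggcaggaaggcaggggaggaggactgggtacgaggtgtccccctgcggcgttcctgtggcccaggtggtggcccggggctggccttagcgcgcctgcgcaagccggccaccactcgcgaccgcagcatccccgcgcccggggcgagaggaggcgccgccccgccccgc
Elovl7: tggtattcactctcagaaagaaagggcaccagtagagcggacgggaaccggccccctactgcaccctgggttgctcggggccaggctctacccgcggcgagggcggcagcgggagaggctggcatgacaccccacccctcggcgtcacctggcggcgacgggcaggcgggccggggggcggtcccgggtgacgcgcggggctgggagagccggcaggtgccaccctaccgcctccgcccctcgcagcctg
Elovl5: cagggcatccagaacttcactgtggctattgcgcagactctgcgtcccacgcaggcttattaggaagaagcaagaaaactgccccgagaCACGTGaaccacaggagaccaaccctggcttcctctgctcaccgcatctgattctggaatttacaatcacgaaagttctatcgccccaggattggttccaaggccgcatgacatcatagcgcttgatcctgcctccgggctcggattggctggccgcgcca
The 6 motifs below were searched on both strands of the whole windows, against the share of all 32851 promoters that held each. These were the C/EBP motif TTGCNNAA (10.8% of promoters), the cAMP response element (CRE) TGACGTCA (1.79%), the sterol element TCACNCCAC (1.24%), the E-box CACGTG (7.15%), and the PPAR and LXR repeats (0.04% and 0.02%). Elovl5 held an E-box at -161 and a CRE at +4 from its start site, and Elovl4 held an E-box at +6. None of the other 4 members with a window held any of these letters.

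The libraries held 27.07 to 55.18 M gene counts, of which 28.8% to 36.0% were from mitochondrially encoded genes. The targeted gene, Cebpb, stood at 75.5 to 130 CPM (gene counts relative to the scaled library total, in parts per M) in WT at RT and 108 to 167 CPM in WT cold, against 0.208 to 0.856 CPM in KO at RT and 1.61 to 2.27 CPM in KO cold. Every KO library was far below every WT library. On the first principal component of log2 CPM (53.9% of the variance), RT libraries lay from -56.3 to -23.4 and cold libraries from 26.6 to 51.8. The WT RT replicate 4 (-23.4) and the WT cold replicate 5 (26.6) were nearest to the other temperature. Both were left out together in an alternative fit. They were picked by their position in these same data, so a call gained in that fit is not independent support. Brown adipocyte markers (13 of 13 detected) summed to 15850 to 21320 CPM at RT and 24580 to 29560 CPM in the cold. In WT cold 3 of them rose and 6 fell, and in KO cold 3 rose and 7 fell. The 3 that rose were Ucp1, Dio2 and Ppargc1a in both. The median log2 change of the 13 was -0.23 in WT and -0.25 in KO. Of all genes tested, 26.2% rose and 30.2% fell in WT cold, and 27.5% rose and 31.7% fell in KO cold. Adrb3, Ebf2 and Plin1 were lower in KO in the cold, and Dio2 at RT. The part of these markers in the results below was not tested. Skeletal muscle markers moved with temperature: 17 of 18 fell in the cold in each genotype, and their sum was 61.9 to 1624 CPM in WT at RT, 53.8 to 93.7 in WT cold, 88.4 to 726 in KO at RT and 52.2 to 62.0 in KO cold, where 2 of the 18 were at 0. Of 11 fibroblast markers, 2 were higher in KO at RT and 4 in KO cold, against 1.38% and 3.51% of all genes. In bulk tissue, fewer cells of a type and less RNA per cell cannot be told apart.

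**Figure D1:**
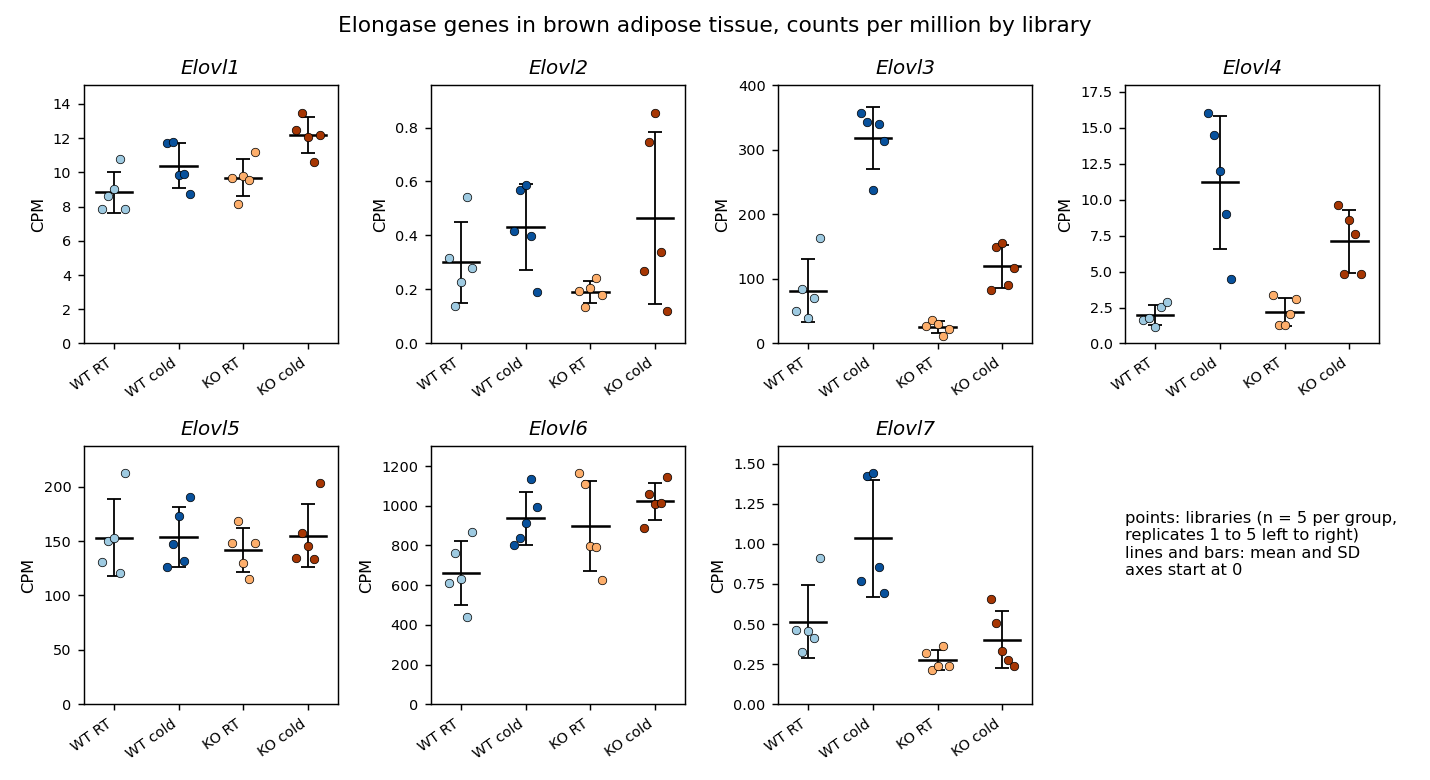
CPM of each elongase gene in the 20 libraries, with the mean and SD of each group (n = 5). The axes start at 0 and differ between panels. Elovl3 and Elovl4 show no overlap between RT and cold in either genotype, and Elovl3 is lower in KO than in WT at both temperatures.

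Of the genes that elongate saturated and monounsaturated chains, Elovl3 passed the test in both cold and both knockout comparisons. The WT libraries at RT held 50.7, 85.2, 39.0, 70.6 and 163 CPM of Elovl3. After cold the WT values were 358, 344, 238, 341 and 314 CPM. Replicate 5 was the highest WT library at RT, and the lowest cold library was still above it. The KO libraries at RT held 27.4, 36.3, 30.0, 11.4 and 22.6 CPM, and after cold 83.1, 149, 156, 91.0 and 118 CPM. All KO cold libraries were above all KO RT libraries and below all WT cold libraries, while they overlapped with WT at RT.

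Elovl3 rose in WT cold from 81.8 ± 48.9 to 319 ± 47.8 CPM (SD, n = 5), a log2 change of 1.96 (SE 0.35, 95% interval 1.22 to 2.71, adjusted p = 0.000139, edgeR's quasi-likelihood test with Benjamini-Hochberg adjustment, as below). In KO cold it rose from 25.5 ± 9.31 to 119 ± 33.0 CPM, a log2 change of 2.22 (SE 0.36, adjusted p = 4.56e-05). At RT it was lower in KO by a log2 change of -1.68 (SE 0.35, interval -2.43 to -0.93, adjusted p = 0.0148). In the cold the KO was lower by -1.42 (SE 0.35, interval -2.15 to -0.69, adjusted p = 0.0162). These 4 comparisons share groups and are not independent. The knockout at RT did not pass when the fit held only the 2 groups compared (-1.67, adjusted p = 0.112). When the mean log2 CPM of the muscle markers entered the fit as a covariate (the muscle term), the 4 log2 changes were 1.83, 2.03, -1.66 and -1.46, and all passed. In KO this muscle mean was 0.8 to 4.75 at RT and -2.11 to -1.8 in the cold, with no overlap. In KO, muscle and temperature therefore cannot be told apart, whether a KO cold call was kept or lost with the muscle term.

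Elovl6, the palmitate elongase and the gene with the most reads, had small changes. WT libraries at RT held 609, 763, 630, 439 and 867 CPM, and WT cold libraries 801, 837, 912, 1134 and 995 CPM. The lowest of these was replicate 4 at RT, and 3 of the 5 cold libraries exceeded every RT library. In KO the values were 1163, 1107, 796, 792 and 628 CPM at RT and 889, 1059, 1007, 1012 and 1145 CPM in the cold, with full overlap. Elovl6 rose in WT cold by a log2 change of 0.50 (SE 0.17, adjusted p = 0.0176). This was lost without WT RT replicate 4 and WT cold replicate 5 together (0.39, adjusted p = 0.0667). The change in KO cold was 0.19 (interval -0.17 to 0.54, adjusted p = 0.36). Between genotypes it was 0.44 at RT (interval 0.08 to 0.80, adjusted p = 0.224) and 0.13 in the cold (adjusted p = 0.756), neither past the threshold.

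Elovl1 was measured at 7.86, 8.62, 9.05, 10.8 and 7.88 CPM in WT at RT and at 11.7, 11.8, 9.85, 9.89 and 8.73 CPM in WT cold. The groups overlapped, and the log2 change of 0.23 (interval 0.02 to 0.45) did not pass (adjusted p = 0.0585). It passed under 8 of 19 alternatives: without WT RT replicate 4 (0.34, adjusted p = 0.00655), without WT cold replicates 3, 4 or 5 (adjusted p 0.0409, 0.0391 and 0.0124), without both WT RT replicate 4 and WT cold replicate 5 (0.00167), with RLE scaling (0.0349), with counts of both strands (0.0327) and by DESeq2 (0.0304). With the muscle term the WT change was 0.14 (adjusted p = 0.3645). The KO libraries held 9.70, 8.13, 9.80, 9.56 and 11.2 CPM at RT and 12.5, 13.5, 12.1, 10.6 and 12.2 CPM in the cold, where 4 of 5 exceeded every RT library. Elovl1 rose in KO cold by 0.33 (SE 0.10, adjusted p = 0.0093). With upper quartile scaling the change was 0.24 (adjusted p = 0.0512), and with the muscle term 0.17 (adjusted p = 0.362). Between genotypes it differed by 0.13 at RT and 0.23 in the cold, with adjusted p of 0.658 and 0.22.

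Elovl7 was a low-level gene, counted 7 to 75 times per library. WT libraries held 0.464, 0.327, 0.457, 0.413 and 0.909 CPM at RT and 0.766, 1.42, 1.44, 0.857 and 0.692 CPM in the cold. Replicate 5 at RT overlapped with the cold libraries and the other 4 did not. KO libraries held 0.318, 0.214, 0.239, 0.364 and 0.238 CPM at RT and 0.657, 0.51, 0.335, 0.278 and 0.237 CPM in the cold. Elovl7 rose in WT cold by a log2 change of 1.01 (SE 0.30, adjusted p = 0.00661). In KO cold the change was 0.54 (interval -0.20 to 1.29, adjusted p = 0.203). In the cold it was lower in KO by -1.36 (SE 0.32, interval -2.02 to -0.70, adjusted p = 0.00816), and every KO library was below every WT library, though narrowly, at 0.657 against 0.692 CPM. At RT the difference was -0.89 (adjusted p = 0.207).

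Elovl4, the elongase of the longest chains, had the largest log2 change of the 7 in WT cold. The WT libraries at RT held 1.64, 1.78, 1.14, 2.55 and 2.88 CPM, and the WT cold libraries 16.05, 14.47, 11.99, 8.997 and 4.484 CPM. Replicate 5 was the lowest cold library and still stood above all RT libraries. The KO libraries held 3.40, 1.26, 1.26, 2.03 and 3.06 CPM at RT and 9.61, 4.82, 8.59, 7.61 and 4.86 CPM in the cold, again with no overlap. Elovl4 rose by a log2 change of 2.48 in WT cold (SE 0.36, interval 1.72 to 3.25, adjusted p = 1.27e-05). It rose by 1.68 in KO cold (SE 0.36, interval 0.92 to 2.44, adjusted p = 0.00063). With the muscle term these were 2.43 and 1.59. The KO did not differ past the threshold at RT (0.15, interval -0.64 to 0.94) or in the cold (-0.66, interval -1.37 to 0.05, adjusted p = 0.293).

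Of the polyunsaturated-chain elongases, Elovl5 passed no test. Its group means were 153 ± 35.6 CPM (WT RT), 154 ± 27.6 (WT cold), 142 ± 20.4 (KO RT) and 155 ± 28.9 (KO cold), with single libraries from 115 to 212 CPM and overlap in every comparison. The intervals of its log2 change were -0.33 to 0.33 in WT cold, -0.20 to 0.46 in KO cold, -0.44 to 0.22 for KO at RT and -0.31 to 0.34 for KO in the cold. The other, Elovl2, was counted only 4 to 30 times per library. It stood at 0.301 ± 0.15, 0.432 ± 0.16, 0.191 ± 0.0398 and 0.466 ± 0.318 CPM in the same order of groups. It rose in KO cold by a log2 change of 1.24 (SE 0.46, adjusted p = 0.0264), with 4 of 5 cold libraries above every RT library and replicate 5, at 0.119 CPM, below all of them. This was lost without KO RT replicate 2 (adjusted p = 0.0543), KO cold replicate 2 (0.0769) or KO cold replicate 3 (0.105), and with the muscle term (0.88, adjusted p = 0.288). In WT cold the change was 0.52 (adjusted p = 0.303), and with the muscle term 0.33 (adjusted p = 0.618). Without both WT RT replicate 4 and WT cold replicate 5, the libraries nearest to the other temperature, it was 1.05 (adjusted p = 0.0418).

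**Figure D2:**
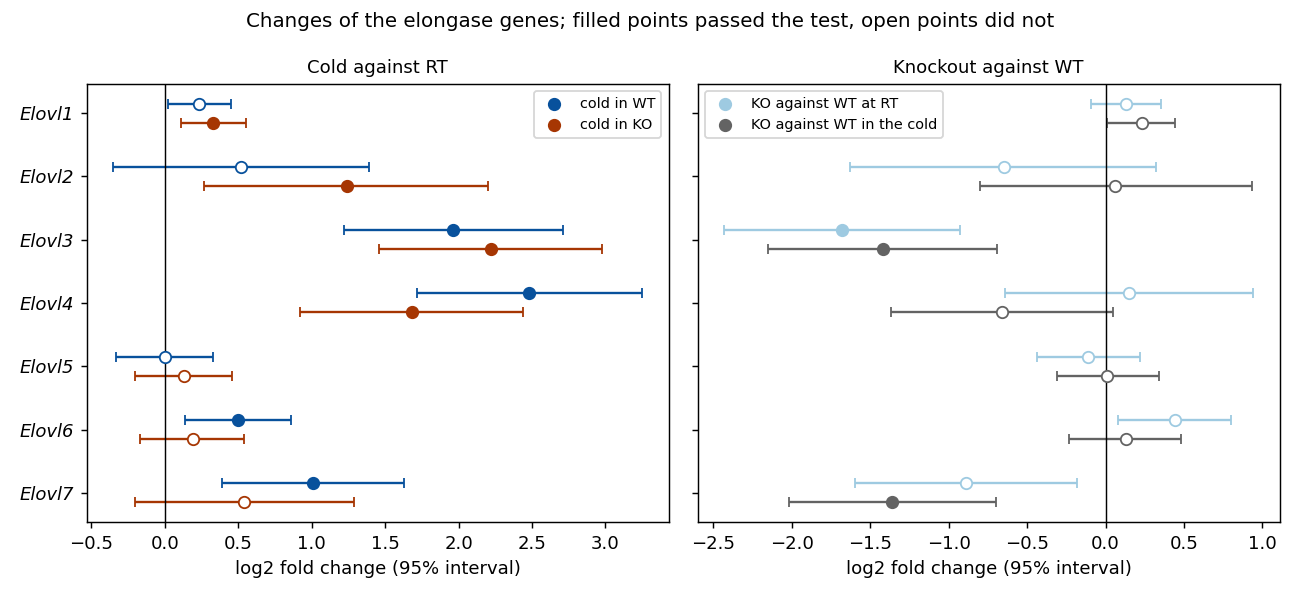
Log2 fold changes with 95% intervals of the 7 genes in the cold (left) and in the knockout (right). Filled points passed the test at an adjusted p under 0.05. Elovl3 and Elovl4 lie to the right of 0 in both cold comparisons, and Elovl3 lies to the left of 0 in both knockout comparisons.

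Over the family, 4 of the 7 members rose in WT cold and none fell, where 56.4% of all 15233 genes tested passed, 26.2% as higher and 30.2% as lower. DESeq2 called 5, Elovl1 among them. The non-overlap of Elovl3 and Elovl4 compares with 18.9% of all genes whose cold libraries all exceeded the RT ones. In KO cold 4 members rose and none fell, against 59.2% of all genes passing, 27.5% as higher and 31.7% as lower, and non-overlap upward held for 21.6% of genes. At RT 1 of 7 (Elovl3) was lower in KO, against 2.70% of all genes passing, 1.38% as higher and 1.32% as lower, and 2.54% of genes whose groups did not overlap in that direction. In the cold 2 of 7 (Elovl3 and Elovl7) were lower in KO, against 7.70% passing, 3.51% as higher and 4.19% as lower, and 3.74% with no overlap downward. In the cold comparisons no member was lower even before adjustment, or by DESeq2. The median log2 change of the 7 was 0.52 in WT cold and 0.54 in KO cold, where that of all genes was -0.05 in both. The WT median is the value of Elovl2 (interval -0.35 to 1.39) and the KO median that of Elovl7 (interval -0.20 to 1.29). Both are low-count genes, and neither of these changes passed.

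The test of whether the cold response differed between genotypes passed for 0 of 7 members, against 0.742% of all genes, by edgeR's quasi-likelihood test. None was under 0.05 before adjustment, and DESeq2 also called none. The largest of the 7 estimates was that of Elovl4 at -0.81 (interval -1.87 to 0.25, adjusted p = 0.64 by edgeR), followed by Elovl2 at 0.71 (interval -0.59 to 2.01). For Elovl3 it was 0.26 (interval -0.76 to 1.28). These intervals are wide.

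Scaled to exon length, as CPM per kb of exon, the genes can be set against each other. Elovl6 was highest in WT at RT (103 ± 25.3), followed by Elovl5 (43.5) and Elovl3 (41.4), whose ranges overlapped. In WT cold Elovl3 (162 ± 24.2) and Elovl6 (146 ± 20.8) had overlapping ranges, above Elovl5 (43.6). In KO at RT the order was Elovl6 (140), Elovl5 (40.3) and Elovl3 (12.9), with no overlap between neighbours. In KO cold Elovl6 (159) led, and Elovl3 (60.5) and Elovl5 (44.0) overlapped. Elovl1 (3.24 to 4.46), Elovl4 (0.66 to 3.70), Elovl7 and Elovl2 were lower in all groups. The Elovl3 share of the summed length-scaled level was 20.6% ± 6.92 in WT at RT, 45.0% ± 5.44 in WT cold, 6.51% ± 1.95 in KO at RT and 22.1% ± 4.39 in KO cold. The Elovl6 share was 54.1%, 40.6%, 70.3% and 59.0% in the same order. These shares are descriptions, with no test.

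**Figure D3:**
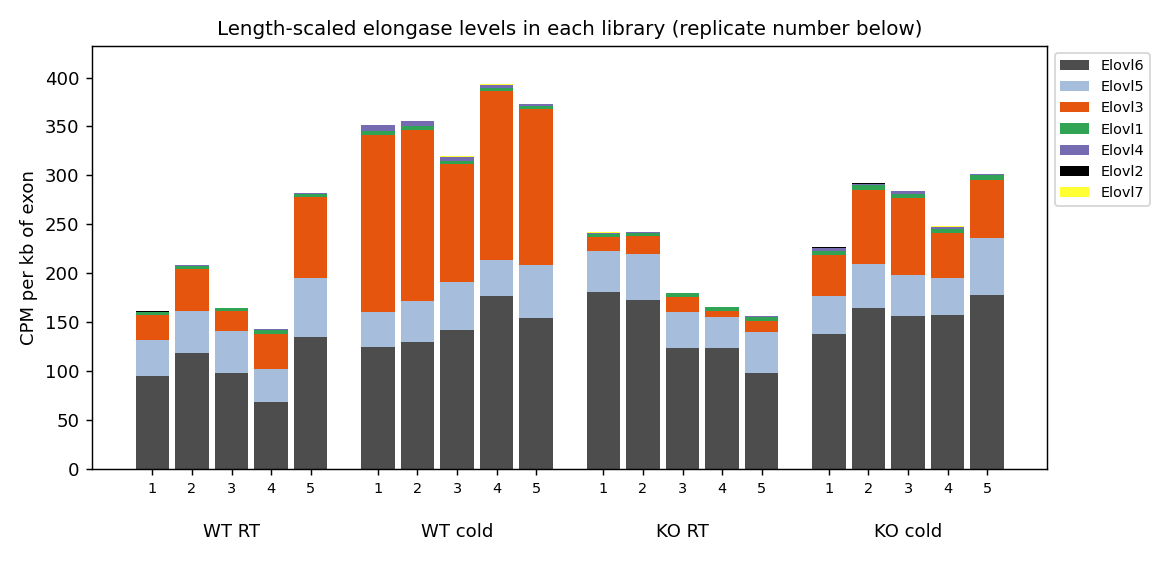
Stacked length-scaled levels (CPM per kb of exon) of the 7 genes in each library. Elovl6, Elovl5 and Elovl3 make up nearly all of each bar, and Elovl2 and Elovl7 are too low to be seen. The Elovl3 share is largest in WT cold.

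Genes with the most similar pattern were ranked by the root mean square difference of log2 CPM, centred on the gene mean, over 20 libraries and 8934 genes. For Elovl3 they were Socs2 (0.621), Nnmt (0.676) and Cyp4b1 (0.713), where Elovl3's own root mean square was 1.43. For Elovl4 they were Spry4 (0.466), Got1 (0.501) and Eif1a (0.525), against 1.18. For Elovl6 they were Gapdh (0.174), Eno1 (0.189) and Trp53inp2 (0.19), against 0.358. The first pair are known to have many pseudogene copies, and reads that match several copies could be left out of the counting. Whether they were was not tested.

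The counts of the related lists below stand against 26.2% of all genes higher and 30.2% lower in WT cold. In KO cold these shares were 27.5% and 31.7%, and for the knockout 2.70% of all genes passed at RT and 7.70% in the cold. The enzymes that complete the elongation cycle moved in both directions. Of 6 tested partners, 2 rose and 2 fell in WT cold, and 1 rose and 2 fell in KO cold. Hacd2, a dehydratase, rose by a log2 change of 1.06 in WT cold (148 ± 51.8 to 307 ± 42.7 CPM, adjusted p = 4.06e-05) and 0.96 in KO cold (adjusted p = 0.000101). The ketoacyl reductase Hsd17b12 rose in WT cold by 0.40 (adjusted p = 0.0016). Hacd3 fell by -0.29 and -0.23, and Hacd4 by -0.50 and -0.67. Hacd4 in WT cold was lost without WT RT replicate 3 (adjusted p = 0.104) or WT cold replicates 1, 2 or 3 (0.0633, 0.075 and 0.0757). Hacd3 in KO cold was lost without KO RT replicate 5 (0.0718) or KO cold replicates 1 or 4 (0.0517 and 0.0616) and with the muscle term (0.0631). Hacd1 was lower in KO at RT (-0.58, adjusted p = 0.00377). Hacd2 was lower in KO in the cold (-0.59, adjusted p = 0.0415), and lost without any of WT cold replicates 3, 4 and 5 or KO cold replicates 1, 2, 3 and 4 (adjusted p 0.0544 to 0.115). It was also lost with the muscle term (-0.58, adjusted p = 0.0637), without an expression filter (0.0904) and without both WT RT replicate 4 and WT cold replicate 5 (0.0954).

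Of 9 tested desaturases and their electron donors, Fads3 rose in both cold comparisons, by 1.15 in WT (12.8 ± 0.859 to 28.2 ± 6.42 CPM) and 1.27 in KO. Scd2 fell in KO cold (-1.60, adjusted p = 0.00217, but 0.0926 with the muscle term), as did Cyb5r3 (-0.39). In the genotype comparisons edgeR called none of the 9. Before adjustment 3 were under 0.05 at RT and 0 in the cold, and DESeq2 called none.

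Of the 10 genes listed under malonyl-CoA and palmitate supply, enzymes and regulators together, 2 fell in WT cold and 8 in KO cold. Thrsp, a lipogenic regulator, fell by -1.33 in WT (792 ± 258 to 316 ± 121 CPM) and by -2.24 in KO (1311 ± 373 to 278 ± 28.1 CPM), and its partner Mid1ip1 by -1.03 and -1.85. Acly, which makes cytosolic acetyl-CoA, fell in KO cold by -1.81 (adjusted p = 0.00163, but 0.0846 with the muscle term). The test of the difference between the cold responses called none of the 10, although 9 were lower with an unadjusted p under 0.05, and DESeq2 called none. In the genotype comparisons edgeR called none of the 10, with 7 higher under 0.05 before adjustment at RT (DESeq2 called 2) and 2 lower in the cold (DESeq2 called 1).

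Of 9 tested acyl-CoA synthetases, 4 rose and 1 fell in WT cold, and 4 rose and 3 fell in KO cold. Of the 7 KO calls, those of Acsl1, Acsl3 and Acsl5 were lost with the muscle term (adjusted p 0.603, 0.143 and 0.27), without an expression filter (0.0771, 0.0866 and 0.0503) and without single libraries. Acsl1 was lost without any of KO RT replicates 2, 3 and 4 or KO cold replicates 2, 3 and 5 (adjusted p 0.0549 to 0.0749), and with upper quartile scaling (0.21). Acsl3 was lost without any of KO RT replicates 1, 2 and 3 or KO cold replicates 1, 2, 3 and 4 (0.0616 to 0.115), with only the groups compared (0.0598) and without both WT RT replicate 4 and WT cold replicate 5 (0.0575). Acsl5 was lost without KO RT replicates 1 or 2 or KO cold replicates 1 or 5 (0.0581 to 0.09). Slc27a2 rose by 0.62 and 1.31 and Acsl4 by 0.58 and 0.89, while Slc27a1 fell by -1.37 and -1.13. Slc27a1 was also lower in KO at RT (-0.47, adjusted p = 0.00544). In the cold Acsl4 was higher in KO (0.43, adjusted p = 0.00393) and Acsl1 lower (-0.35, adjusted p = 0.0386). The Acsl1 call was lost without WT cold replicates 2, 3 or 5 or KO cold replicates 1, 2 or 4 (adjusted p 0.0595 to 0.134), without both WT RT replicate 4 and WT cold replicate 5 (0.114), with upper quartile scaling (0.0567) and with only the groups compared (0.0827). Of 4 tested ceramide synthases, Cers4 fell in both cold comparisons (-0.88 and -0.82). Cers5 fell by -0.17 in each, and each call depended on single libraries and on the processing. The WT call was lost without WT RT replicates 3, 4 or 5 or WT cold replicates 2, 3, 4 or 5 (adjusted p 0.0544 to 0.117). It was also lost with RLE scaling (0.0575), without an expression filter (0.135), with counts of both strands (0.0634) and by DESeq2 (0.0517). Without both WT RT replicate 4 and WT cold replicate 5 its adjusted p was 0.12. The KO call was lost without KO RT replicates 3, 4 or 5 or KO cold replicates 1, 4 or 5 (adjusted p 0.0781 to 0.176). It was also lost with RLE scaling (0.0504), without an expression filter (0.0705), with the muscle term (0.0855) and with only the groups compared (0.0615). Without both WT RT replicate 4 and WT cold replicate 5 its adjusted p was 0.0592.

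Of 10 genes of peroxisomal oxidation, the route by which very long chains are broken down, 7 fell in WT cold and 6 in KO cold, and 0 rose in either (also 0 before adjustment and by DESeq2). In KO cold Acox2, an acyl-CoA oxidase, fell most (-2.42, 1.04 ± 0.291 to 0.197 ± 0.102 CPM, adjusted p = 1.06e-05). It also fell most in WT cold, at a low level (0.615 ± 0.267 to 0.254 ± 0.0664 CPM). Acaa1b fell by -1.02 and -1.16 and Abcd2, a very long chain transporter, by -0.83 and -1.24. In the cold Abcd3 was higher in KO (0.40, adjusted p = 0.00488) and Acaa1a lower (-0.51, adjusted p = 0.00453).

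Of 18 genes listed as possible direct or indirect regulators of elongase genes, 4 rose and 9 fell in WT cold, and 5 rose and 9 fell in KO cold. The deleted gene Cebpb is one of the 18 and among those that rose, by 0.46 in WT (adjusted p = 0.0133, but 0.35 and 0.123 with the muscle term) and by 1.75 in KO (0.564 ± 0.252 to 1.92 ± 0.278 CPM). The coactivator Ppargc1a rose by 3.24 in WT (108 ± 19.5 to 1025 ± 347 CPM) and 3.78 in KO (107 ± 41.5 to 1474 ± 527 CPM). Srebf1, the lipogenic factor SREBP1, fell by -2.25 (106 ± 30.1 to 22.4 ± 8.21 CPM) and -3.04, Cebpa by -1.99 and -2.34, and Mlxipl, which encodes ChREBP, by -1.09 and -1.39. In the cold Rxra and Pparg, nuclear receptor genes, were lower in KO (-0.54, adjusted p = 0.00763, and -0.47, adjusted p = 0.00041).

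**Figure D4:**
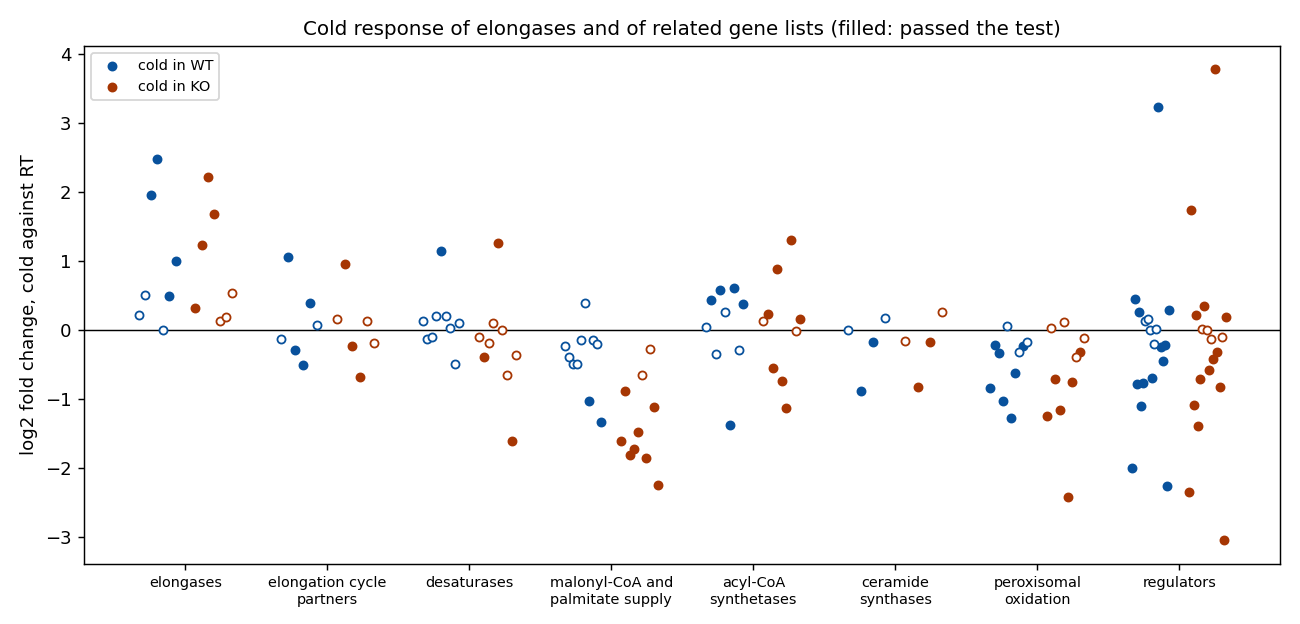
Log2 change in the cold of the elongases and of the 7 related lists, in WT (blue) and KO (orange-brown), each point a tested gene in alphabetical order within its list. Filled points passed the test. The malonyl-CoA and palmitate list lies mostly below 0, and 8 of its 10 genes passed in KO.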

How the data were processed

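Polyadenylated RNA of brown adipose tissue was measured in 20 libraries made with a KAPA stranded kit, per the labels' protocols. The authors deposited counts of reads for each gene, made with Trim Galore 0.6.0 and STAR 2.7.8a on GRCm38.p6, per the submitters' processing notes, and the annotation release is not given in the sources used here. Each table held 55471 gene IDs and 4 entries that name no gene, which took 27.6% to 30.8% of the reads and were left out. The reverse-strand column (94.5% to 95.7% of stranded gene counts) was used. Symbols came from a reference list of gene names, and lengths from GENCODE M21 (55144 IDs matched).

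Counts were tested in R 4.3.3 with edgeR 4.0.16. The filter filterByExpr (count minimum 10, total minimum 15) left 15233 genes, all 7 members among them. Libraries were scaled by TMM. All 4 groups entered a single robust quasi-likelihood model (16 residual degrees of freedom), with Benjamini-Hochberg adjustment over all tested genes and a threshold of 0.05. The procedure was tested on simulated data. Errors are SD over libraries, and depth limits precision chiefly for Elovl2 and Elovl7. Log2 CPM used a prior count of 2. Alternatives were other scalings, no filter, DESeq2 1.42.0, counts of both strands, the replicate number as a block, a muscle marker covariate, only the groups compared, and libraries left out.

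The members and lists were chosen with earlier results of these data known. A gene of the peroxisomal list is not reported here. Named list genes were at most the 3 of largest change per list, direction and comparison with a mean of at least 1 CPM. One white adipocyte marker, Wdnm1-like, was not used here. Besides those in the report, 9 lists of markers of other cell types were counted. In WT cold and KO cold these gave, as higher and lower calls, for white adipocytes 0 and 2, then 0 and 2. Macrophages gave 3 and 0, then 4 and 0. Lymphocytes gave 0 and 5, then 0 and 4. Endothelial cells gave 5 and 4, then 6 and 4. Smooth muscle and pericytes gave 1 and 3, then 4 and 2. Schwann cells gave 1 and 1 in each. Hepatocytes gave 0 and 1, then none. Neutrophils and erythrocytes gave none by edgeR, with 1 erythrocyte marker higher in WT cold before adjustment and by DESeq2. In the knockout comparisons edgeR called 1 marker of these 9 lists, Cnn1, higher in the cold.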

Additional observations from a re-analysis of the deposited data

Results flagged for a closer look

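In groups of 5 libraries, the highest or lowest library was checked for its distance from the others, over 164 groups of the named genes. Chance alone flags about 1 in 20 groups. Among the elongases 1 library stood apart: Elovl7 in WT at RT, where replicate 5 held 0.909 CPM and the next library 0.464 CPM.

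The others were genes of the related lists. In WT cold replicate 5 was highest for Abcd3 (531 CPM), Cebpa (262), Cyb5r3 (72.4), Mlxipl (75.7), Slc27a1 (62.5) and Thrsp (527). At RT in WT, replicate 4 was lowest for Nr1h2 (28.6 CPM), and replicate 3 was lowest for Abcd3 (461) and highest for Hacd4 (3.31). Nr1h2 was highest in KO RT replicate 3 (37.4 CPM). In KO cold the highest libraries were replicate 2 for Abcd3 (629 CPM) and Scd2 (97.4), replicate 1 for Acaa1a (43.9) and replicate 4 for Ppargc1a (2407).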

How the results depend on the processing

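Over the 19 alternatives run for each, the cold rises of Elovl3 and Elovl4 in both genotypes, the rise of Elovl7 in WT cold, and the lower levels of Elovl3 and Elovl7 in KO cold kept their direction and side of the threshold. With the muscle term, 2 members were called in KO cold. With only the groups compared, 0 were called for the knockout at RT. Among all genes, DESeq2 called 629 for the knockout at RT (411 by edgeR) and 269 for the interaction (113 by edgeR), and leaving out both WT RT replicate 4 and WT cold replicate 5 gave 74 for the interaction. Leaving out 1 library gave 4 to 5 members in WT cold, 3 to 4 in KO cold and 267 to 356 genes for the knockout at RT where the library was of the 2 groups compared, with 267 without WT RT replicate 5 and 269 without KO RT replicate 4. Libraries of the other groups also moved that count: without WT cold replicate 5 it was 268 higher and 262 lower (210 and 201 with all libraries). The cause of these shifts was not tested.

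Signs turned only for log2 changes that passed no test. For Elovl5 these were, in WT cold, -0.09 with upper quartile scaling, -0.05 with the muscle term and -0.14 without both libraries named above, and -0.06 to 0.18 with 1 library left out (-0.05, -0.01, -0.05, -0.02 and -0.06 where it turned). For Elovl5 in the knockout they were 0.04 at RT without WT RT replicate 5 (range -0.19 to 0.04 with 1 left out), and in the cold -0.01 without a filter, -0.00 with the muscle term and -0.05, -0.00, -0.04 and -0.10 with 1 library left out (range -0.10 to 0.10). For Elovl2 in the knockout in the cold they were -0.02 with the muscle term, -0.13 without both libraries, and -0.13, -0.17 and -0.28 with 1 left out (range -0.28 to 0.32). Elovl4 in the knockout at RT turned to -0.07 without KO RT replicate 1 (range -0.07 to 0.32). For the interaction, Elovl3 turned to -0.15 (range -0.15 to 0.44) and Elovl5 to -0.02 (range -0.02 to 0.22) without WT RT replicate 5, and Elovl1 to -0.04 without both libraries.

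The labels do not say that replicate numbers pair the libraries. Deviations of same-numbered libraries correlated at -0.203 to 0.284. Libraries of different number were not compared, so this does not settle whether the numbers pair them. With the replicate number as a block, 4, 4, 1 and 2 members were called in WT cold, KO cold, the knockout at RT and in the cold, as without it, and 8491, 8958, 383 and 1078 genes in all. With the longest transcript as length, the length-scaled levels of Elovl1 and Elovl5 rose by at least the group SD in all 4 groups. In WT at RT Elovl1 moved from 3.24 to 4.88 and Elovl5 from 43.5 to 55.1. Totals without mitochondrially encoded genes, taken without TMM scaling, raised the length-scaled levels of all members in all groups. In WT at RT the levels rose to 5.03 for Elovl1, 158 for Elovl6 (from 103) and 67.0 for Elovl5 (from 43.5). In WT cold they rose to 5.32 for Elovl1 (from 3.81), 203 for Elovl6 (from 146) and 60.8 for Elovl5 (from 43.6). Ratios between genes within a library stayed as they were, but differences between groups did not. Counts of 4 to 75 reads limit Elovl2 and Elovl7.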
